A study of Mus musculus with 8 samples.

Results

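The genes described are the matrix proteases and the protease inhibitors of tibialis anterior muscle, taken by symbol: the matrix metalloproteinases (Mmp), the ADAM and ADAMTS metalloproteinases with the ADAMTS-like genes, the tissue inhibitors of metalloproteinases (Timp) and the serpins. All probe sets annotated with exactly 1 symbol of these families were used, with the brightest probe set standing for a gene. They gave 98 of the 14860 genes measured: 20 Mmp, 25 Adam, 16 Adamts, of which 4 are ADAMTS-like, 4 Timp and 33 Serpin genes. No expression value chose them, apart from the brightness rule, which decided only for Adam23, the member with more than 1 probe set. A further 12 probe sets carry several symbols with at least 1 from these families and are not analysed here.

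Tibialis anterior, the shin muscle that lifts the foot, was taken from C57BL/6 mice, all male and 8 weeks old. The denervated group is the left muscle at 7 days past cutting of its sciatic nerve, and the innervated group is the uncut right side of operated animals, not of sham-operated ones. Each group has 4 arrays numbered 1 to 4. Same-numbered arrays are called a pair below, although nothing in the labels ties a number to 1 animal. All 9 myofibre markers were measured, at mean log2 intensities between 9.88 and 12.7, far above the array medians of 5.84 to 6.00.

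Matrix metalloproteinases are zinc-dependent enzymes, most of them secreted as inactive precursors, that cut collagens and other matrix proteins. ADAMs are membrane proteins that shed receptors and ligands from the cell surface, and ADAMTS enzymes are secreted and cut proteoglycans and procollagens. TIMPs bind the active site of these metalloproteinases. Serpins are mostly suicide inhibitors of serine proteases such as plasmin, thrombin and elastase, although some carry hormones or act inside cells. In muscle these systems take part in turnover of the connective tissue sheath and basement membrane around the fibres.

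Promoter sequences are shown for those members that passed the test and have an entry in the RefSeq promoter table of GRCm38.p6, and for Mmp3, the member nearest to the threshold among the metalloproteinases. Each is the 250 bases just before the annotated start, read 5′ to 3′ on the strand of the gene. Capitals mark matches to 4 motifs: AP-1 (TGACTCA or TGAGTCA), STAT (TTCNNNGAA) and the E-box of the MyoD type (CAGCTG or CACCTG), each on both strands, and the TATA box (TATAAA or TATATA) on the strand of the gene.
Timp4 (chr6:115252206-115252455, minus strand): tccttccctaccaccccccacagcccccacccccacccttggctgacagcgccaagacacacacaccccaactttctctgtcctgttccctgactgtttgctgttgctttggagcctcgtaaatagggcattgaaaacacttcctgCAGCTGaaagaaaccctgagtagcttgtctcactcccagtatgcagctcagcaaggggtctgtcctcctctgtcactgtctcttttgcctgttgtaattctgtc
Serpina3n (chr12:104406458-104406707, plus strand): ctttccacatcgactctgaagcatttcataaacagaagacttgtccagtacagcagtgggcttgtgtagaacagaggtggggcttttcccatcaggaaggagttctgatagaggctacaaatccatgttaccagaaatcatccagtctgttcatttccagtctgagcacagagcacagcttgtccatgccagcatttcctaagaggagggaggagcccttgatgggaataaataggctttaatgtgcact
Serpinb6a, start 1 (chr13:34002795-34003044, minus strand): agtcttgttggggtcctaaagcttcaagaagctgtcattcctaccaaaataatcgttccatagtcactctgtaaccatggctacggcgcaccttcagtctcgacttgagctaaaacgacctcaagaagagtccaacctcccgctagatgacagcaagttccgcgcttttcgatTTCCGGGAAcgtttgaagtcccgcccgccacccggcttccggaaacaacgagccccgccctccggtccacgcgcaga
Serpinb6a, start 2 (chr13:33936084-33936333, minus strand): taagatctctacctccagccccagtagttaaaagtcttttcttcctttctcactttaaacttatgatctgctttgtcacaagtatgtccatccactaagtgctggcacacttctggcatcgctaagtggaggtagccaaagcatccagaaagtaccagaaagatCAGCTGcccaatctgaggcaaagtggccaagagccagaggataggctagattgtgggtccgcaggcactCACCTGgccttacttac
Mmp3 (chr9:7445572-7445821, plus strand): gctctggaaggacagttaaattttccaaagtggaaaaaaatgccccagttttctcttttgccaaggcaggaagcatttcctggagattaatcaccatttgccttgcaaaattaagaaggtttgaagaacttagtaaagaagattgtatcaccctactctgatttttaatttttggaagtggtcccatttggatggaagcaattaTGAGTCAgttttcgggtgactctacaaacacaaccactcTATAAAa
The Timp4 window holds 1 E-box, CAGCTG. The Serpinb6a windows hold 1 STAT match, TTCCGGGAA, at start 1, and the E-boxes CAGCTG and CACCTG at start 2, while Mmp3 has an AP-1 match and a TATA box. Of all 32851 promoter windows of this length in the table, 27.7% hold the E-box, 7.02% the STAT motif, 4.46% the AP-1 motif and 11.5% the TATA box. Among the windows of the 68 members with an entry, 79 in all, the shares were 26.6%, 8.86%, 13.9% and 25.3%. No match overlaps another in the windows printed. A match is a description of letters, not a bound site.

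The AP-1 and TATA letters were unevenly spread over the families. Of the 18 windows of matrix metalloproteinases, from 15 genes, 7 hold AP-1 (38.9%) and 8 a TATA box (44.4%), against 4.46% and 11.5% of all windows. Each of the 7 AP-1 matches is in a gene of chromosome 9, shown here with the match in capitals and 10 bases on either side.
Mmp10 (chr9:7502269-7502295, plus strand): agcacccatgTGAGTCAtgcttagtga
Mmp12 (chr9:7347320-7347346, plus strand): acatcaacagTGAGTCAgatagaggat
Mmp13 (chr9:7272469-7272495, plus strand): cccaaagtggTGACTCAtcactatcat
Mmp1a (chr9:7464058-7464084, plus strand): ttgtcaaccaTGAGTCAcatagcctct
Mmp1b (chr9:7388103-7388129, minus strand): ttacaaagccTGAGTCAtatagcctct
Mmp3 (chr9:7445766-7445792, plus strand): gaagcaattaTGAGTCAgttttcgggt
Mmp7 (chr9:7692017-7692043, plus strand): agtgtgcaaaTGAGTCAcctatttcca
These 7 genes encode the collagenases Mmp1a, Mmp1b and Mmp13, the stromelysins Mmp3 and Mmp10, the matrilysin Mmp7 and the macrophage metalloelastase Mmp12. None of them passed the test in denervated muscle, and their changes ran from -0.12 for Mmp1b to 0.60 for Mmp3 with a median of 0.02. The 8 Mmp genes with a window but no AP-1 match had changes between -0.10 and 0.43 with a median of 0.07, and none passed either. Dimness differed: 3 of the 7 with a match and 1 of the 8 without lay below the lower quartile of the array on every array.

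Few of these genes passed the test for a change with denervation. Levels below are log2 intensities. A change is the fitted limma difference of denervated less innervated muscle, with its SE over 4 pairs. A gene passed at a Benjamini-Hochberg adjusted p under 0.05 over all 14860 genes. Of the 98 members 4 passed: the serpins Serpina3n and Serpinb6a rose, and the metalloproteinase inhibitor Timp4 and the proteoglycan-cleaving enzyme Adamts5 fell. That is 4.08% of the members, against 8.45% of all genes. By direction, 2 members rose, against 3.56% of all genes, and 2 fell, against 4.89%. No Mmp gene and no Adam gene passed, and at an unadjusted p under 0.05 there were 3 of 20 Mmp genes and 2 of 25 Adam genes, against 21.7% of all genes. Over all 98 members 14 reached that unadjusted level: 12 upward, against 10.2% of all genes, and 2 downward, against 11.5%. The median change of the members was 0.01, with an SD of the 4 pair medians of 0.12, beside a median of -0.01 over all genes. In the fit with no replicate block 1 of the 98 passed, Timp4, beside 5.38% of all genes.

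**Figure D1:**
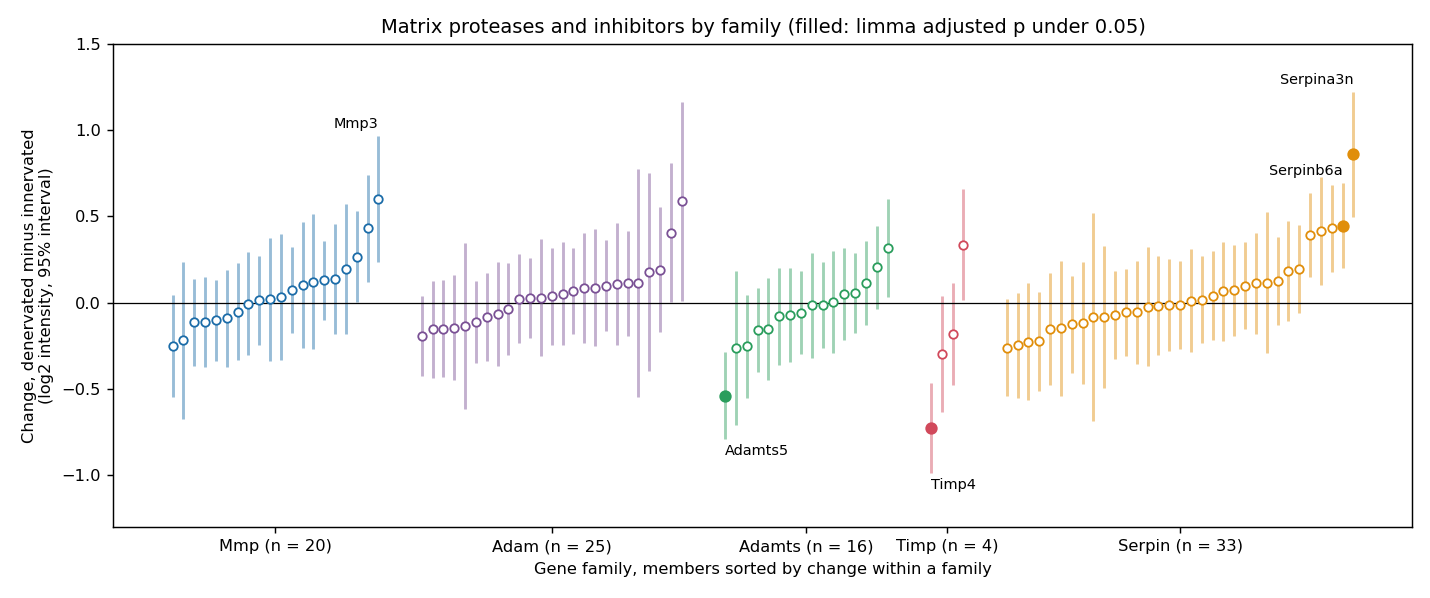
Change of each of the 98 members, denervated minus innervated on the log2 scale, with its 95% interval from limma, sorted within the 5 families. Filled points are the 4 genes past an adjusted p of 0.05: Adamts5 and Timp4 below 0, and Serpinb6a and Serpina3n above 0; most open points lie between -0.3 and 0.3.

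For 96 of the 98 members the 95% interval of the change lay between -1 and 1, a 2-fold change in intensity either way, as it did for 93% of all genes. The exceptions were Serpina3n, with an interval of 0.50 to 1.22, and the testis gene Adam20, with 0.01 to 1.16. Intervals inside -0.5 to 0.5 were found for 66 members, against 59.7% of all genes. The 2 arrays of replicate 3 stood apart from the other 6, with an SD over probe sets of 1.36 and 1.25 against 1.45 to 1.56. Values without that pair are given below for Adamts5, Serpina3n, Serpinb6a and a number of others. Timp4 passed without that pair too.

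Many members were dim on these arrays. The values of 35 of the 98 lay below the lower quartile of the array on every array, as did 15.2% of all genes, and 18 lay above the median on every array, as did 39.5% of all genes. The dim ones were 20 of 33 serpins, 11 of 25 Adam genes and 4 of 20 Mmp genes, and none of the Adamts or Timp genes. When all genes were split at their quartiles of mean intensity into 4 bins, the dimmest bin held 46 members, of which none passed, beside 1.45% of its genes. The next bin held 30 members, again with none past the threshold, beside 2.56%. Of the 9 members in the third bin 1 passed, beside 7.81%, and of the 13 in the brightest bin 3 passed, beside 22%. The table has no detection values, so a dim probe set may report background, and a change in its mRNA may be understated or missed.

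**Figure D2:**
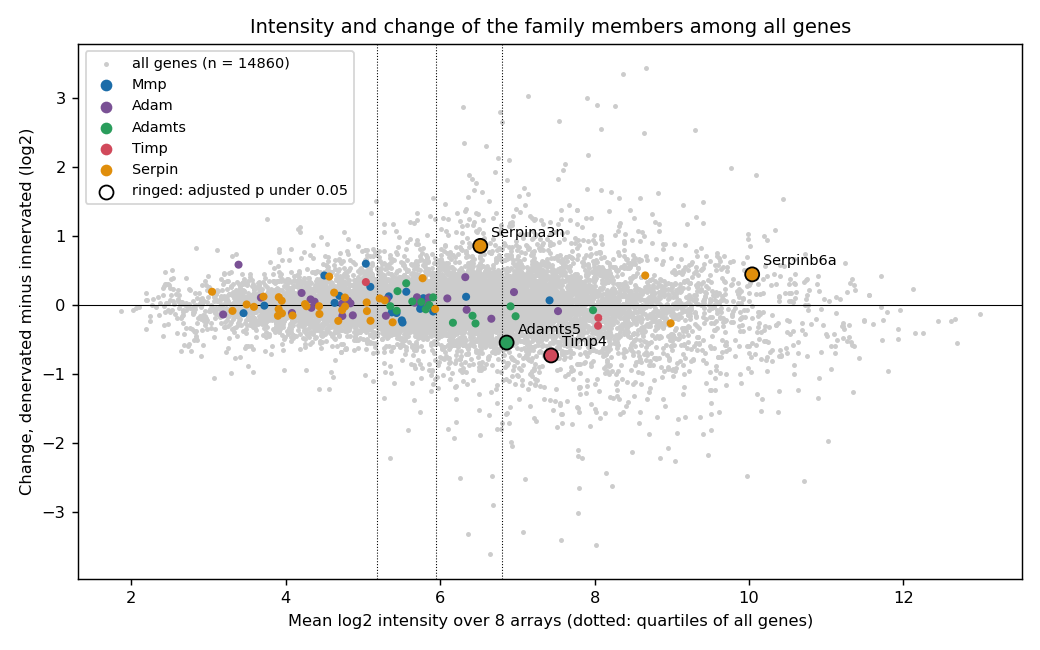
Mean log2 intensity over the 8 arrays against the change for all 14860 genes (grey) and the 98 members, coloured by family. Dotted lines are the quartiles of all genes; the 4 ringed members, Serpina3n, Adamts5, Timp4 and Serpinb6a, lie above the middle line, as 22 of the 98 members do.

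The metalloproteinases themselves came first by role. Mmp2, gelatinase A, which cuts denatured collagen and collagen IV of basement membrane, read 7.78, 7.19, 6.83 and 7.73 on the innervated arrays 1 to 4 and 8.01, 7.26, 6.71 and 7.84 on the denervated ones. The groups overlapped throughout, and both arrays of replicate 3 were the lowest of their group. Its change was 0.07 (SE 0.11, 95% interval -0.18 to 0.32, adjusted p = 0.798 by limma). Mmp9, gelatinase B, which neutrophils and macrophages also make, read 5.64 ± 0.24 and 5.39 ± 0.18 (mean ± SD, n = 4), below the array medians of 5.84 to 6.00. Its change was -0.25 (interval -0.55 to 0.04). Mmp14, the membrane-bound activator of pro-Mmp2, had a change of 0.12 (SE 0.17), but within pair 3 it was 0.73 against -0.03, 0.10 and -0.30 in the others. Without replicate 3 the mean change of Mmp14 was -0.08.

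Mmp3, stromelysin-1, which cuts many matrix proteins and activates other Mmp precursors, came nearest to the threshold in its family. It read 4.78, 4.82, 5.14 and 4.20 in innervated and 5.35, 4.95, 5.78 and 5.27 in denervated muscle, higher in each of the 4 pairs although the groups overlapped. The change was 0.60 (SE 0.16, interval 0.24 to 0.96), or 1.52-fold, with a limma adjusted p = 0.0578. Its adjusted p was 0.0174 with array weights and 0.181 with no replicate block. Leaving out replicates 1, 2, 3 and 4 in turn gave 0.199, 0.0456, 0.0857 and 0.228, and a change of 0.44 without replicate 4.

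Mmp8, the neutrophil collagenase, read 4.20, 4.29, 4.55 and 4.09 against 4.46, 4.41, 5.30 and 4.68, below the lower quartile on every array, and its change of 0.43 (SE 0.13) had an adjusted p of 0.101 (0.0440 with array weights). The 8 measured neutrophil markers had a log2 summed intensity of 8.16 to 8.44 in innervated and 8.35 to 10.5 in denervated muscle, and 1 of them, S100a8, rose. On the denervated arrays 1 to 4 that sum was 8.35, 9.90, 10.5 and 9.04, while Mmp8 was highest on array 3 and lowest on array 2. S100a8 and S100a9 carried most of the difference in the sum, with changes of 2.87 and 1.55. Camp, Ngp, Mpo and Cxcr2 had 0.24, 0.24, 0.10 and 0.10, and Elane and Csf3r had -0.01 and -0.07. The median change of the list was 0.17. Denervated array 3 also had the highest lower quartile of the 8 arrays, 5.36. Their part in the Mmp8 value was not tested. Mmp12, the macrophage elastase, went from 4.72 ± 0.38 to 4.74 ± 0.51, below the lower quartile on every array. Mmp16, a membrane-type enzyme, had a change of -0.22 (SE 0.20) that was below 0 in pairs 1, 2 and 4 and 0.56 in pair 3. It passed without replicate 3, at -0.48 (adjusted p = 0.0387). The remaining Mmp genes, which include the other collagenases, stromelysins and membrane-type enzymes, had changes between -0.12 and 0.27.

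None of the 8 ADAMs known for proteolysis in somatic tissues passed, with changes from -0.20 to 0.19. Adam10, the alpha-secretase that also cleaves Notch and cadherins, read 7.24, 6.66, 6.63 and 6.92 against 6.99, 7.04, 7.24 and 6.93. The pairs disagreed, at -0.25, 0.39, 0.61 and 0.01, for a mean change of 0.19 (SE 0.16, interval -0.17 to 0.55). Adam9, a shedding ADAM among the 8 brightest members, had a change of -0.08 (interval -0.34 to 0.17). Adam15 was lower in all 4 pairs, from 6.76 ± 0.11 to 6.57 ± 0.11, at -0.20 (SE 0.10, adjusted p = 0.322).

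Adam12 and Adam19, the meltrins first known from myoblast fusion and muscle development in the mouse, had changes of 0.09 (interval -0.25 to 0.43) and 0.10 (interval -0.17 to 0.36). Adam8, a leukocyte ADAM, had 0.04 (SE 0.12). The 3 ADAMs without protease activity that bind neuronal partners, Adam11, Adam22 and Adam23, lay between -0.16 and 0.12, with Adam22 at the lower end. Adam23 was uneven, with pair changes of -0.94, -0.03, 1.11 and 0.32. Of its 2 probe sets the dimmer one had a difference of 0.002. The 14 ADAMs known mainly from testis, sperm or epididymis had 9 members below the lower quartile on every array. Adam20, below it on every array, showed 0.59 (SE 0.25, adjusted p = 0.222), with 1.57 in pair 3 and a change of 0.26 without replicate 3. Adam4, which is not 1 of these 9, had 0.41 (SE 0.17, adjusted p = 0.224), with -0.23 in pair 4.

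Adamts5, aggrecanase-2, which cuts aggrecan and versican, fell 1.45-fold. It read 7.49, 6.96, 7.04 and 7.04 on the innervated arrays and 6.99, 6.48, 6.28 and 6.61 on the denervated ones. Each pair moved down, by 0.42 to 0.76 on the log2 scale, while the denervated array 1 still exceeded the innervated array 2, so the groups overlapped. The change was -0.54 (SE 0.11, interval -0.79 to -0.29, limma adjusted p = 0.0230). With no replicate block Adamts5 missed the threshold (adjusted p = 0.125). It also missed it when replicate 1, 2 or 4 was dropped, at 0.107, 0.0760 or 0.0905, and passed at -0.47 when replicate 3 was (0.0294).

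The other proteoglycan-cleaving enzymes did not pass. Adamts1, among the 8 brightest members, went from 8.02 ± 0.30 to 7.94 ± 0.27, a change of -0.07 (interval -0.34 to 0.20). Adamts4, aggrecanase-1, had a change of 0.05 (interval -0.22 to 0.31), and Adamts20 one of -0.26 (SE 0.19) with pairs between -0.85 and 0.19. Adamts16 was higher in all 4 pairs at 0.20 (SE 0.10, adjusted p = 0.319). The ADAMTS-like proteins have the binding domains without the protease, and none of the 4 passed. Of these Adamtsl1 read 5.77, 5.27, 5.28 and 5.30 against 6.16, 5.72, 5.25 and 5.75. Pairs 1, 2 and 4 were higher by 0.39 to 0.46 and pair 3 was at -0.03, for a change of 0.32 (adjusted p = 0.180). Without replicate 3 Adamtsl1 passed at 0.43 (adjusted p = 0.0381), and with array weights at 0.40 (0.0291).

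Among the metalloproteinase inhibitors Timp4, which in the mouse is made in a few tissues that include heart and skeletal muscle, fell 1.65-fold. Its innervated arrays read 7.67, 7.77, 7.57 and 8.18, and its denervated arrays 7.20, 7.01, 6.75 and 7.33. Every denervated value was below every innervated one, as in 7.4% of all genes. The change was -0.73 (SE 0.11, interval -0.99 to -0.47, limma adjusted p = 0.00888), the smallest adjusted p of the 98 members. It passed without the replicate block too (adjusted p = 0.0360) and under 11 of the 12 alternatives. The exception was the fit without replicate 4, where it was -0.68 (adjusted p = 0.0582).

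The other Timp genes did not pass. Timp2, which also takes part in activating pro-Mmp2 on the cell surface, read 8.62, 7.94, 7.81 and 8.19 against 8.12, 8.07, 7.67 and 7.98, a change of -0.18 (interval -0.48 to 0.11). Timp3, the matrix-bound inhibitor that also blocks ADAM and ADAMTS enzymes, went from 8.19 ± 0.23 to 7.90 ± 0.52, with a change of -0.30 (interval -0.63 to 0.04). Its pairs ran from 0.08 to -0.73, the last in pair 3, and without replicate 3 the change was -0.15. Timp1, the inducible inhibitor, was dim at 5.27, 4.54, 4.69 and 4.99 against 5.42, 5.34, 4.92 and 5.15. It was higher in all 4 pairs by 0.15 to 0.80, at 0.34 (SE 0.14, adjusted p = 0.212). The median of the 4 Timp genes was -0.24, with pair medians of -0.20, -0.11, -0.44 and -0.20.

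**Figure D3:**
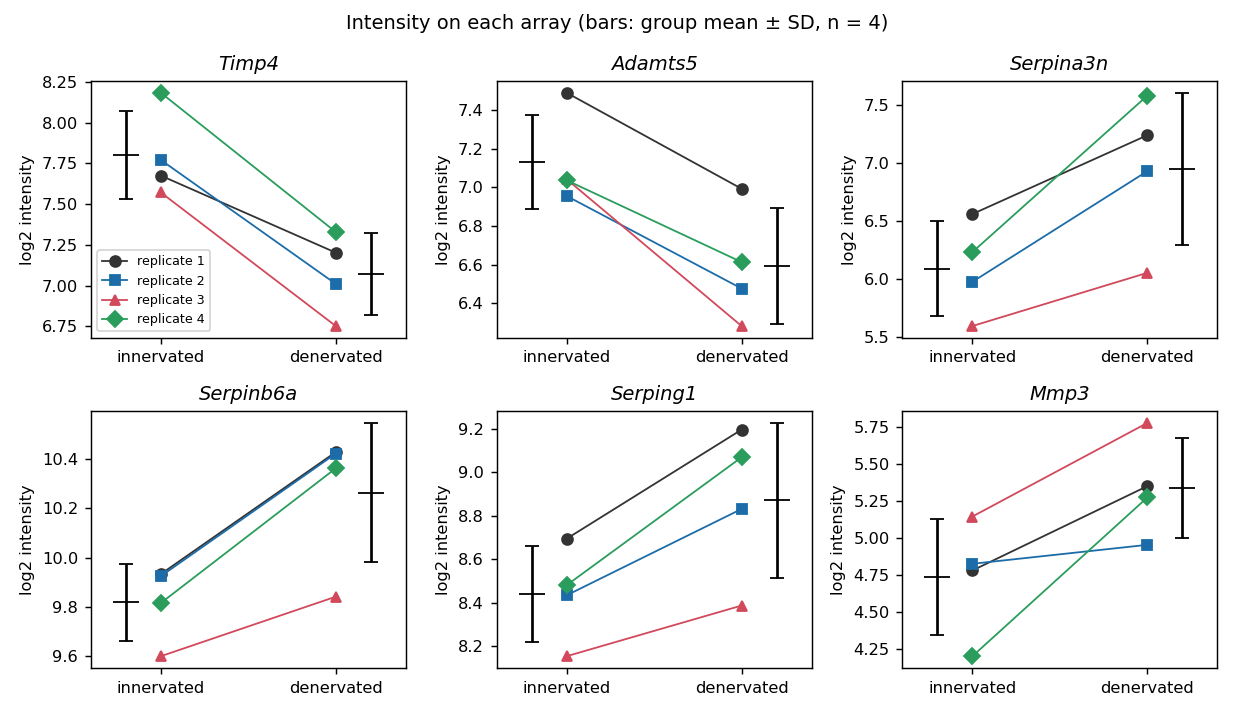
Log2 intensity of 6 members on each array, with lines joining same-numbered arrays and bars giving the group mean ± SD (n = 4); each panel has its own axis. Timp4 and Adamts5 are lower and Serpina3n, Serpinb6a, Serping1 and Mmp3 are higher in the denervated array of all 4 pairs, and the groups do not overlap for Timp4.

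Serpina3n, a secreted antichymotrypsin-like serpin known as an acute-phase gene, rose 1.81-fold. The innervated arrays read 6.56, 5.98, 5.60 and 6.23 and the denervated ones 7.24, 6.93, 6.05 and 7.58. All 4 pairs were higher, by 0.46 in pair 3 and 1.35 in pair 4, while the denervated array of replicate 3 lay within the innervated range. The change was 0.86 (SE 0.15, interval 0.50 to 1.22, limma adjusted p = 0.0158). With no replicate block the adjusted p was 0.174. Leaving out replicates 1, 2 or 4 gave 0.0751, 0.0683 or 0.0641, each above the threshold, and leaving out replicate 3 gave a change of 0.99 (0.00688). Its measured neighbours Serpina3a and Serpina3b had changes of -0.13 and -0.12, both below the lower quartile on every array. Serpina3 genes are close copies of each other, and whether the probes tell all of them apart is not given in the sources used here.

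Serpinb6a, an intracellular serpin whose human counterpart inhibits trypsin-like proteases and cathepsin G, rose 1.36-fold. It read 9.93, 9.92, 9.60 and 9.81 against 10.43, 10.42, 9.84 and 10.36. Pairs 1, 2 and 4 were higher by 0.50 to 0.55 and pair 3 by 0.24, where the denervated array lay inside the innervated range. The change was 0.45 (SE 0.11, interval 0.20 to 0.70, limma adjusted p = 0.0442). The adjusted p rose above the threshold with no replicate block (0.155) and with median centring (0.0598). It also did so when replicate 1, 2 or 4 was left out, at 0.184, 0.144 or 0.215, whereas dropping replicate 3 gave 0.52 (0.0206). Of its close copies, Serpinb6b had -0.08 (SE 0.26) and Serpinb6c 0.41 (SE 0.14, adjusted p = 0.116). Serpinb6c is named because its groups, at 4.36 ± 0.089 and 4.77 ± 0.25, did not overlap, as in 5.32% of all genes in that direction. It lay below the lower quartile on every array and was chosen after its values were seen.

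Serping1, the C1 inhibitor that controls the complement proteases C1r and C1s, lay just outside the threshold. It read 8.69, 8.43, 8.15 and 8.48 against 9.20, 8.83, 8.39 and 9.07, higher in all 4 pairs by 0.23 to 0.59. The change was 0.43 (SE 0.11, interval 0.18 to 0.68, adjusted p = 0.0527). The adjusted p was 0.0274 under quantile normalization, 0.0306 or 0.0216 when the dimmest 25% or 50% of genes were dropped, 0.00965 under array weights and 0.0267 when replicate 3 was dropped. Its adjusted p without the replicate block was 0.273. Serpinb8, an intracellular serpin whose human counterpart inhibits furin, had 0.39 (SE 0.10, adjusted p = 0.0660) and was higher in all 4 pairs, by 0.29 to 0.57. It passed under 2 of 11 alternatives, with the dimmest 25% of genes dropped (0.0405) and with array weights (0.0272). With no replicate block the adjusted p was 0.271, and with a replicate left out it was 0.0502 to 0.220.

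Serpinf1, the pigment epithelium-derived factor, a serpin that inhibits no known protease, read 9.57, 8.99, 8.78 and 9.13 against 9.19, 8.84, 8.27 and 9.12. It was lower in all 4 pairs, at -0.26 (interval -0.54 to 0.02, adjusted p = 0.265). Serpind1, heparin cofactor II, had -0.25 (SE 0.13), and neuroserpin, Serpini1, which inhibits tissue plasminogen activator in the nervous system, had -0.07 (SE 0.11) at values below the lower quartile on every array. The 7 other clade A serpins, mainly plasma proteins made in liver, lay between -0.22 and 0.18, and the coagulation serpins Serpinc1 and Serpind1 with the plasmin inhibitor Serpinf2 between -0.25 and 0.10. Of the 16 clade B serpins, which act mostly inside cells, 11 were below the lower quartile on every array.

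**Figure D4:**
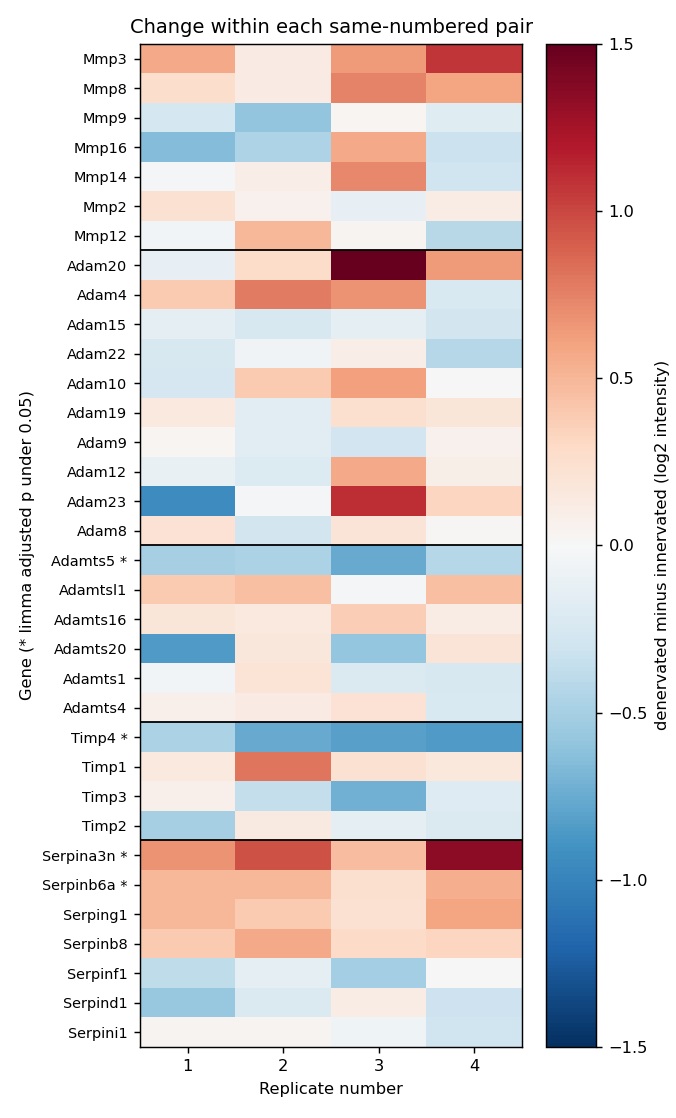
Denervated minus innervated log2 intensity within each same-numbered pair for the 34 members named by the rule, grouped by family; red is higher and blue lower in denervated muscle, and an asterisk marks an adjusted p under 0.05. The rows of Timp4, Adamts5, Serpina3n and Serpinb6a keep 1 colour over all pairs. Rows of members that did not pass do so too, among them Mmp3, Mmp8, Adam15, Adamts16, Timp1, Serping1 and Serpinb8. Those of Adam23, Adam20, Mmp14 and Mmp16 hold both colours, with pair 3 the highest of the 4 pairs in each.

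Markers of other cells moved in the same samples, where 3.56% of all genes rose and 4.89% fell. Of 11 measured macrophage markers 5 rose, with a log2 summed intensity of 9.76 to 10.01 in innervated and 10.63 to 11.18 in denervated muscle, beside the rises of Serpina3n and Serpinb6a. On the denervated arrays 1 to 4 that sum was 10.83, 10.63, 11.18 and 10.67. Serpina3n and Serpinb6a had their lowest denervated values, 6.05 and 9.84, on array 3. Of 8 endothelial markers 2 fell, with sums of 9.97 to 10.42 and 9.60 to 10.03. Among 6 Schwann cell markers 1 fell, with sums of 8.79 to 10.5 and 8.71 to 9.08. The Schwann cell marker that fell was Pmp22, from a mean of 8.89 to 7.26. Mbp and Mag had changes of -0.33 and -0.14, and Erbb3, S100b and Sox10 had 0.26, 0.13 and 0.07. Apart from Pmp22 none of these passed, and the list median was -0.04. Of 9 fibroblast markers 1 rose and 1 fell (sums of 12.1 to 12.7 and 11.8 to 12.5). Of 9 myofibre markers 2 fell, with sums of 15.2 to 15.3 and 14.7 to 15.0 that did not overlap and a list median of -0.40. These markers lie in the brightest bin, where 22% of genes passed in either direction. None of 8 pericyte and smooth muscle markers passed, with a list median of -0.22. In 4 measured tenocyte markers, 1 rose and 1 fell, with sums of 9.75 to 10.9 and 9.52 to 10.4. None of the macrophage, endothelial, Schwann cell or fibroblast markers lay below the lower quartile on every array. The part of any of these cells in the changes of Serpina3n, Serpinb6a, Timp4 and Adamts5 was not tested. In RNA from whole muscle, fewer cells of a type and less RNA per cell cannot be told apart.

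Few other genes of matrix proteolysis passed. Of 64 measured genes in 4 lists 1 rose, against 3.56% of all genes, and 2 fell, against 4.89%, with a median change of -0.02. Ece1, the endothelin-converting enzyme, rose by 0.43 (SE 0.10, limma adjusted p = 0.0425). The secreted serine protease gene Prss23 fell, from 7.96 ± 0.11 to 7.38 ± 0.24 (change -0.58, SE 0.12, adjusted p = 0.0230). Wfdc1, a secreted protein with the whey acidic protein domain of small protease inhibitors, fell from 7.16 ± 0.20 to 6.45 ± 0.40 (change -0.71, SE 0.14, adjusted p = 0.0226). Without the replicate block Ece1 and Wfdc1 missed the threshold (0.339 and 0.0673). None of the 3 passed without replicate 1, 2 or 4, and Ece1 also missed it with the block as a random effect (0.127) and after median centring (0.0540). Of 12 plasminogen activators, precursor convertases and receptors none passed, and none of 19 matrix and surface substrates did. At an unadjusted p under 0.05 the first list held 1 of 12, Bsg, and the second 4 of 19, Fn1, Vtn, Dag1 and Hbegf, against 21.7% of all genes. These genes are named after their values were seen.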

How the data were processed

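Log2 intensities of 16755 probe sets on 8 arrays were analysed, 4 per group. Per the labels' protocols, 50 ng of TRIzol-extracted RNA was amplified and labelled with biotin. The deposited log2 values were computed by the authors using GCOS with RMA, per the submitters' processing notes, which name mm9; versions, probe set definitions and filters were not given in the sources used here. RMA pulls dim values together, which can understate folds. Array medians were 5.84 to 6.00, the number of arrays limits the precision, and the table used has no detection values. All 8 columns were used.

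Probe sets with 1 symbol in the platform annotation numbered 14996, with several 1019 and with none 740. The brightest per gene gave 14860 genes, of which 14805 were found in RefSeq by Entrez ID with no symbol changed. limma 3.58.1 in R 4.3.3 fitted group with replicate number as a block (two-sided, default moderation, 3 residual and 4.57 prior degrees of freedom), with Benjamini-Hochberg adjustment over all genes. The block follows the series design, which relates each denervated muscle to the contralateral one. Deviations from group means correlated within numbers at 0.23, -0.03, 0.45 and 0.35, so number 2 showed no pairing. Whether a group's arrays are separate animals is not stated. The p-values then reflect only how these samples vary, which may be technical. The fit was tested on simulated data. Alternatives were no block, a random block, quantile or median scaling, filters on dim genes (25% or 50%), the mean of probe sets, array weights and each replicate number left out. The members to name, the lists and the motifs were chosen with earlier results of these data known. Members named are those past the threshold in any fit, the 8 brightest, 2 per family and direction, all Timp genes and 25 preset symbols, of which 19 were measured.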

Additional observations from a re-analysis of the deposited data

Results flagged for a closer look

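On the arrays of the members and pathway genes named, 74 groups of 4 values were examined for a value far from the other 3, and 3 had one; chance gives about 1 in 20 such groups. The innervated array of replicate 1 read 7.49 for Adamts5, against 6.96 to 7.04 on the other innervated arrays. The same array read 5.77 for Adamtsl1, against 5.27 to 5.30. The denervated array of replicate 3 read 9.84 for Serpinb6a, against 10.36 to 10.43 on the others, and that array also had the lowest SD over probe sets, 1.25.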

How the results depend on the processing

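The number of members past the threshold, 2 higher and 2 lower, depended on the fit. Without the replicate block 0 rose and 1 fell, with 0 of the 2 serpins and 0 Adamts genes left and 800 of all genes called against 1255. Median centring left 1 member higher, a serpin. With the dimmest 25% left out 4 members rose, all 4 serpins. With array weights 7 rose: 4 serpins, 2 Mmp genes and 1 Adamts gene. In either direction 3 of 98 members passed after median centring, beside 6.99% of all genes. The 25% filter gave 6 of 52 members, beside 13.8% of the genes kept, and array weights gave 9 of 98, beside 14.8%. Leaving out each replicate in turn gave 0 to 4 higher and 0 to 3 lower members, with 0 to 3 serpins higher, 0 to 1 Mmp gene in either direction, 0 to 1 Adamts gene in either direction and 0 to 1 Timp gene lower. Without replicates 1, 2, 3 and 4 in turn, 1, 2, 7 and 0 members passed, while 347, 651, 1643 and 486 of all genes did. No Adam gene passed under any of the 12 alternatives. With the dimmest 50% left out the Serpin median was 0.44 and the Adamts median -0.16, taken over the brighter members only. These were 1 serpin and 3 Adamts genes of the third bin and 3 serpins and 4 Adamts genes of the brightest bin. Other pathway genes numbered 0 higher and 1 lower without the block, 4 lower with the block as a random effect, 2 higher after quantile normalization, 0 higher after median centring, 2 higher with either filter on dim genes, 5 lower with the dimmest 50% left out, 2 higher and 6 lower with array weights, and 0 to 2 in each direction with a replicate left out. Of all genes, in either direction, 5.38% passed without the block, 9.85% with the block as a random effect and 8.71% after quantile normalization. After median centring 6.99% did, with the 25% or 50% filter 13.8% or 22.6%, and with array weights 14.8%. For single genes, 369 of 420 values kept direction and call. The signs that turned were all of changes that did not pass. With array weights Mmp14, Mmp12 and Adamts4 were at -0.064, -0.091 and -0.040. With a replicate left out, Mmp14 ranged from -0.078 to 0.26, Mmp12 from -0.14 to 0.17, Adam12 from -0.075 to 0.18, Adam23 from -0.22 to 0.47, Adam8 from -0.022 to 0.14, Adamts4 from -0.0096 to 0.14 and Serpini1 from -0.11 to 0.0054. The causes were not tested.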
